A study of Homo sapiens with 12 samples.

Results

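The 169 well expressed ZNF genes were the rows of the expression table whose symbol is ZNF followed only by digits and whose mean over the 12 libraries was at least 200 scaled reads. Scaled reads are read counts that the authors set to 20000000 per library and rounded up. Of the 58302 rows, 479 carried such a symbol. The rule also left out 7 genes by name, of which only ZNF766 reached the mean. The members were chosen by symbol and by mean level over all 12 libraries, with earlier results of these data known. Of the genes left out by name, ZNF28, ZNF468, ZNF160 and ZNF480 were called lower in all 3 edited lines by the limits below. ZNF83 was called higher in D11 and WB1, and ZNF611 and ZNF766 were called in no edited line against TPC1. ZNF480 averaged 202 scaled reads in TPC1 but 111 over all 12 libraries, so the mean also drops genes that fell. Levels are given as a description, and differences between lines are tested.

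RNA was sequenced from 3 libraries each of 4 human lines: wild-type TPC1, a line from a papillary thyroid carcinoma, and D11, WB1 and TD5, which carry a CRISPR/Cas9 deletion in 1 allele of Dicer1 and keep the other (Dicer1 (+/−)). Each edited line was grown from a single cell, so an effect of the genotype and a difference between clones cannot be told apart within 1 line. The study's methods state in general that experiments were repeated independently, but no label says that the libraries of a line came from separate cultures. The p-values measure only the spread between these libraries, which may be technical. DICER1 itself averaged 1197 ± 142 scaled reads in TPC1 (SD, n = 3). Its means were 1040 ± 58.7 in D11, 878 ± 62.0 for WB1 and 693 ± 100.8 for TD5. By limma the fall passed both limits used below in TD5 (log2 fold change −0.77, SE 0.0988, adjusted p = 9.02e-05). It passed the adjusted p in WB1 (−0.43, adjusted p = 0.00404) and neither limit in D11 (−0.19, adjusted p = 0.138), and the values say nothing of which allele was read. Among thyroid markers TSHR, NKX2-1 and SLC5A5 were at 0 in all 12 libraries while PAX8 averaged 8578.5 scaled reads, and 6 markers of other cell types together gave 2 to 9 scaled reads per library. From the steps between whole numbers, 11 libraries held an estimated 12700000 to 17320000 counted reads, so that 1 read was worth 1.15 to 1.57 scaled reads, and in TPC1 replicate 1 the number could not be read from the steps.

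C2H2 zinc finger genes form the largest family of human transcription factors. A C2H2 zinc finger is a short fold in which a pair of cysteines and a pair of histidines hold a zinc ion, and fingers joined in tandem by a conserved linker each read a few bases of DNA. Many members also carry a KRAB box at the start of the protein. It recruits the corepressor TRIM28 (KAP1), which brings the histone methyltransferase SETDB1 and HP1 proteins, and the site becomes heterochromatin. KRAB genes expanded as clusters, many of them on chromosome 19, in step with the mobile elements that they silence. Other ZNF genes have no KRAB box and serve as activators, as parts of chromatin complexes, or in RNA and ribosome metabolism.

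The repeated unit of the family is shown for 5 members whose levels are described below, because the same protein fold is written in very different base compositions. Each line gives the coding strand of the first finger that is followed directly by a conserved linker, from GENCODE transcripts on GRCh38, with the 2 cysteine and 2 histidine codons in capitals.
ZNF678: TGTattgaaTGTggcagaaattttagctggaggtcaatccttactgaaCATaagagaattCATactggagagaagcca
ZNF302: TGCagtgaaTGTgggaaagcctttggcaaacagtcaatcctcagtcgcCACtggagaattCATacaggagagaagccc
ZNF268: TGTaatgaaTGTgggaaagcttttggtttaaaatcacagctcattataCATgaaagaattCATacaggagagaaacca
ZNF175: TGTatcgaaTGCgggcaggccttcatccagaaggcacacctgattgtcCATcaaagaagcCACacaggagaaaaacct
ZNF526: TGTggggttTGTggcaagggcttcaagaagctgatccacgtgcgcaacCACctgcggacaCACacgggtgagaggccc

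The units of 78 bases lie at chr1:227654545-227654622 for ZNF678, chr19:34684644-34684721 for ZNF302, chr12:133202854-133202931 for ZNF268, chr19:51587676-51587753 for ZNF175 and chr19:42225823-42225900 for ZNF526, all on the plus strand. Each lies in the coding part of the last exon of its transcript, which is exon 4 in ZNF678, 5 in ZNF302 and ZNF175, 6 in ZNF268 and 3 in ZNF526. Guanine and cytosine made up 33.3% of the unit in ZNF268 and 38.5% in ZNF678, but 50% in ZNF302 and ZNF175 and 61.5% in ZNF526. At the third codon positions, where most changes are silent, the share ran from 15.4% in ZNF268 to 80.8% in ZNF526.

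By a search of the canonical coding sequences, 164 of the 169 members held at least 1 C2H2 finger and 76 held at least 10. ZNF142 had the most, with 36. The 5 without a match were ZNF185, ZNF330, ZNF503, ZNF703 and ZNF839. A KRAB A box was found in 68 members and not in 101, by a pattern that can miss diverged boxes and boxes of other transcripts. Members with the box had a median of 12 fingers against 7 without it. Chromosome 19 held 48 members, 30 of them with the box, and chromosome 16 came next with 18. The GC content of the canonical transcript ran from 33.96% in ZNF678 to 70.9% in ZNF865, with a median of 45.0% in KRAB members and 51.7% in the others. The median over the 10595 genes with a mean of at least 200 and a known transcript, members included, was 48.2%.

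Levels spanned a wide range. The median mean was 424 scaled reads, 23 members reached 1000 and 5 reached 2000. ZNF207 (BuGZ), which binds spindle microtubules and the checkpoint protein BUB3, was highest at 5532 scaled reads. Its line means lay close together, from 5213 ± 118 in WB1 to 5798 ± 99.2 in D11. Per kilobase of exon, which allows genes of different length to be compared, ZNF146, a protein made almost wholly of fingers, stood highest at 551 scaled reads per kilobase. It was followed by ZNF622, a factor of ribosome maturation, at 465, and by ZNF593, whose yeast counterpart acts in the assembly of the large ribosomal subunit, at 451. ZNF581, ZNF664, ZNF330, ZNF207, ZNF281, ZNF768 and ZNF511 completed the 10 highest, at 411 down to 281 scaled reads per kilobase. None of these 10 carried a KRAB box by the pattern. On the same scale KRAB members had a median of 54.1 and the others a median of 98.5 scaled reads per kilobase. Just inside the limit lay ZNF213, ZNF74 and ZNF830, with means of 201, 203 and 207 scaled reads. Just outside it lay ZNF417, ZNF18 and ZNF784, with 199.7, 199.5 and 197.

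**Figure D1:**
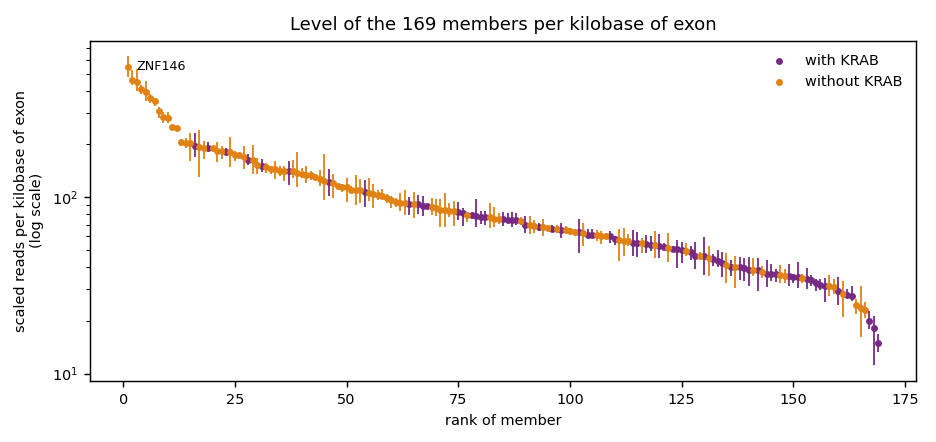
Scaled reads per kilobase of exon (log scale) for the 169 members in order of rank. Each point is the mean over 12 libraries, each vertical line spans the 4 line means, and colour marks a KRAB box by the pattern; ZNF146 stands highest at 551 and no KRAB member is among the first 10.

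Against this range of levels the lines differed little. The members were tested among 16027 genes with at least 1 read per 1000000 in at least 3 libraries, with limma on log2(value per 1000000 + 1). Calls required a change of at least 1.5-fold and, over all genes tested, an adjusted p (Benjamini-Hochberg) under 0.05. All 169 members passed the filter. Between the 4 line means the median range of a member was 0.29 on the log2 scale, and in 160 members it stayed under 1.5-fold. The median coefficient of variation between replicates was 6.79%. The same number, 160, were called in no comparison, and the 9 others were each called in 1 clone against TPC1 and none in more than 1. Shares of all genes called in any comparison, or in more than 1 clone, are not given here. Those for each comparison follow below. The steadiest 5 were ZNF384, ZNF740, ZNF618, ZNF627 and ZNF609. ZNF384, a transcription factor that is a fusion partner in leukaemia, averaged 1264 ± 56.96, 1278 ± 27.0, 1277 ± 72.7 and 1280 ± 120 scaled reads in TPC1, D11, WB1 and TD5. ZNF609, a large protein tied to the cohesin loader NIPBL, lay between 2241 ± 90.5 in D11 and 2371 ± 184 in TPC1.

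In D11 against TPC1, 4 members rose and 0 fell, 2.37% of the members, where 4.84% of all genes tested were called (2.89% higher and 1.95% lower). Among genes with a mean of at least 200 the share was 3.08%. Under an unadjusted p of 0.05, 0 members were lower by 1.5-fold in limma, and 18 were lower by any size.

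ZNF367, a transcription factor studied in cell cycle control and with only 2 fingers, lies at chr9:96385941-96418370. It gave 447, 314 and 354 scaled reads in TPC1 and 596, 667 and 683 in D11. WB1 gave 354, 369 and 350, and TD5 gave 421, 373 and 567. All 3 D11 libraries were above every library of the other lines. The rise over TPC1 was 0.78 on the log2 scale (SE 0.132, adjusted p = 0.000501), and it was the only member still called in D11 after a correction for GC content, at 0.65.

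ZNF678, with 14 fingers at chr1:227563543-227677443, gave 160, 129 and 140 scaled reads in TPC1 and 241, 324 and 270 in D11. WB1 gave 248, 247 and 165, and TD5 gave 136, 158 and 296. D11 and WB1 lay above TPC1 without overlap, while TD5 had 1 high library and 2 at the level of TPC1. The rise in D11 was 0.87 (SE 0.205, adjusted p = 0.00504), and in WB1 the value was 0.54 (adjusted p = 0.0535). Corrected for GC content the D11 value was 0.51 and under the fold limit.

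ZNF180, with 12 fingers at chr19:44474428-44500524, gave 362, 298 and 308 scaled reads in TPC1 and 445, 547 and 521 in D11. WB1 gave 385, 472 and 362, and TD5 gave 380, 369 and 388. D11 did not overlap TPC1, and its rise was 0.61 (SE 0.106, adjusted p = 0.000623). ZNF302, a KRAB gene at chr19:34677639-34686397, gave 185, 163 and 214 in TPC1 and 247, 321 and 329 in D11. WB1 gave 269, 268 and 251, and TD5 gave 178, 158 and 208. Its rise in D11 was 0.62 (SE 0.124, adjusted p = 0.00183). WB1 also lay wholly above TPC1 (0.45, adjusted p = 0.0117, under 1.5-fold), and TD5 stood at the level of TPC1. Both values lay close to the fold limit. The ZNF180 value was 0.56 without TPC1 replicate 2, 0.58 without TPC1 replicate 3 and 0.55 without D11 replicate 2, and the ZNF302 value was 0.53 without TPC1 replicate 2, 0.57 without D11 replicate 2 and 0.55 without D11 replicate 3, which ended the calls. Without D11 replicate 1 the number of members called higher was 10, without TPC1 replicate 1 it was 7, and without TPC1 replicate 2 it was 2.

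In WB1 against TPC1, 2 members rose and 1 fell, 1.78% of the members against 4.99% of all genes tested (3.39% higher and 1.59% lower) and 3.13% of genes with a mean of at least 200. ZNF292, a large protein of 14 fingers at chr6:87151803-87265943 that is mutated in some cancers, gave 487, 474 and 383 scaled reads in TPC1 and 563, 658 and 722 in D11. WB1 gave 716, 783 and 648, and TD5 gave 582, 443 and 754. Both D11 and WB1 lay above TPC1, and TD5 overlapped all 3 other lines. The rise in WB1 was 0.66 (SE 0.146, adjusted p = 0.00347), and in D11 it was 0.51 (adjusted p = 0.0137), under 1.5-fold. ZNF175, a KRAB gene at chr19:51571283-51592510, gave 373, 412 and 293 in TPC1 and 453, 474 and 510 in D11. WB1 gave 537, 561 and 582, and TD5 gave 582, 378 and 482. The rise in WB1 was 0.62 (SE 0.130, adjusted p = 0.00228), and all WB1 libraries were above those of TPC1 and D11. Without TPC1 replicate 3 neither gene was called, at 0.55 for ZNF292 and 0.49 for ZNF175. Corrected for GC content they stood at 0.42 and 0.51, also under the limit.

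ZNF703, on chromosome 8, was the member that fell in WB1. It encodes a corepressor of the NET family without tandem fingers and is amplified in luminal breast cancer. It gave 825, 754 and 828 scaled reads in TPC1 and 671, 669 and 639 in D11. WB1 gave 318, 507 and 477, and TD5 gave 582, 704 and 681. The WB1 libraries were the lowest of all 12, and those of D11 and TD5 also lay below TPC1 without overlap. ZNF703 fell by 0.88 in WB1 (SE 0.125, adjusted p = 0.000115), a call that held without each library in turn. In D11 and TD5 the values were −0.27 (adjusted p = 0.0993) and −0.29 (adjusted p = 0.148), which did not pass.

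In TD5 against TPC1, 1 member rose and 1 fell, 1.18% of the members against 2.6% of all genes tested (1.12% higher and 1.48% lower) and 1.51% of genes with a mean of at least 200. ZNF268 fell. It is a KRAB gene of 24 fingers at chr12:133181409-133214832, in a cluster of ZNF genes at the end of the long arm of chromosome 12. It gave 294, 236 and 367 scaled reads in TPC1 and 279, 333 and 269 in D11. WB1 gave 250, 303 and 262, and TD5 gave 142, 161 and 170. The 3 TD5 libraries lay below all 9 others, which overlapped each other. The change from TPC1 was −0.83 (SE 0.133, adjusted p = 0.000671) and −0.86 after the GC correction, and it was called in TD5 against TPC1 and against D11 under every alternative run. No call was made in TD5 for the 4 other members of the cluster, with values of −0.15 for ZNF605, −0.07 for ZNF26, 0.04 for ZNF84 and 0.10 for ZNF140. A second gene model on the same strand overlaps ZNF268, which makes its count uncertain to that extent.

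ZNF395, on chromosome 8, rose in TD5. It encodes a transcription factor with 1 finger that responds to hypoxia. It gave 646, 766 and 577 scaled reads in TPC1 and 756, 676 and 767 in D11. WB1 gave 672, 727 and 892, and TD5 gave 1139, 932 and 1065, where every library was above all 9 others. The rise was 0.65 (SE 0.111, adjusted p = 0.00118). Without TPC1 replicate 3 it was 0.55 and without TD5 replicate 1 it was 0.58, under the fold limit, and FBXO16 overlaps ZNF395 on the same strand.

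**Figure D2:**
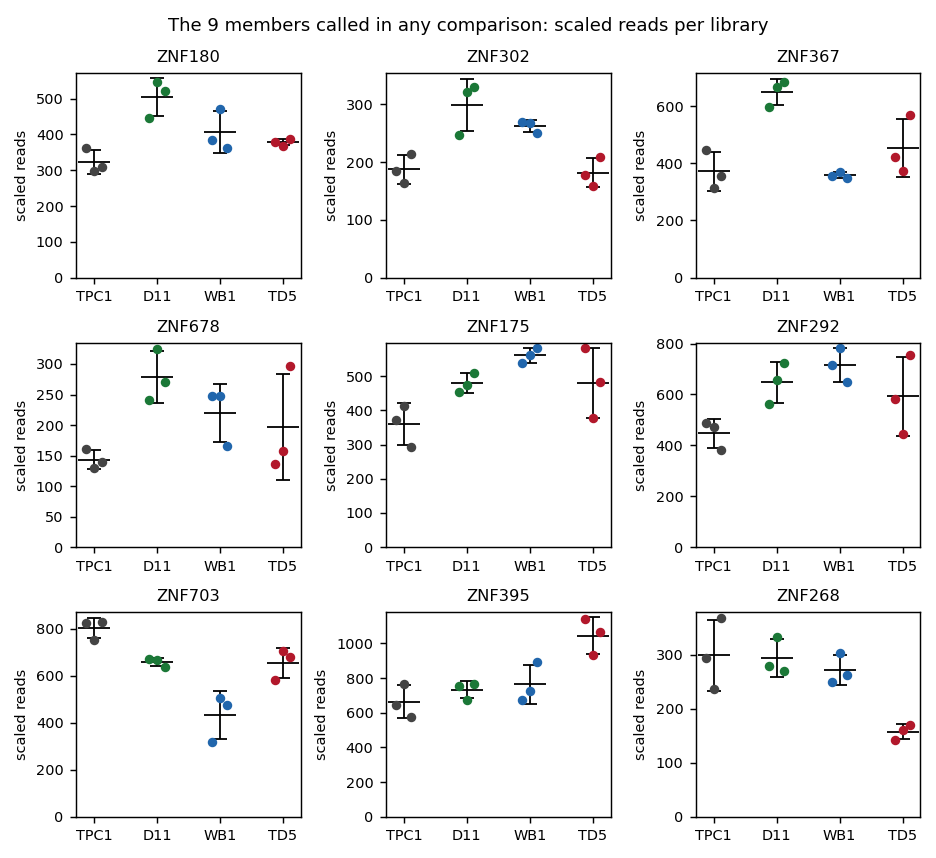
Scaled reads per library (vertical axis from 0) of the 9 members called in any comparison. Coloured points are single libraries, and bars give the mean and SD of 3; the 3 WB1 points of ZNF703 and the 3 TD5 points of ZNF268 lie below all others, and the 3 D11 points of ZNF367 and the 3 TD5 points of ZNF395 above all others.

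The clones were also compared with each other. In WB1 against D11, 0 members were higher and 2 were lower, 1.18% against 2.85% of all genes tested (1.97% higher and 0.88% lower) and 1.46% of genes with a mean of at least 200. Under an unadjusted p of 0.05, limma gave 0 members higher by 1.5-fold. ZNF367 was lower in WB1 (−0.82, SE 0.132, adjusted p = 0.000526), as was ZNF703 (−0.61, SE 0.125, adjusted p = 0.00449). In TD5 against D11, 0 were higher and 2 were lower, 1.18% against 3.99% of all genes (1.67% higher and 2.32% lower) and 2.59% of genes with a mean of at least 200, with 0 higher by 1.5-fold at an unadjusted p of 0.05 in limma. They were ZNF268 (−0.82, SE 0.133, adjusted p = 0.000454) and ZNF302 (−0.66, SE 0.124, adjusted p = 0.00141). In TD5 against WB1, 1 was higher and 1 was lower, 1.18% against 2.33% of all genes (0.611% higher and 1.72% lower) and 1.12% of genes with a mean of at least 200. ZNF703 was higher in TD5 by 0.60 (SE 0.125, adjusted p = 0.0058) and ZNF268 was lower (−0.71, SE 0.133, adjusted p = 0.00255). ZNF703 was not called in either comparison without WB1 replicate 1, its lowest library, at −0.41 against D11 and 0.40 for TD5 against WB1. The comparison with WB1 was also under the fold limit without TD5 replicate 2 (0.54) and without TD5 replicate 3 (0.57). The ZNF302 value was −0.58 without TD5 replicate 2, likewise under the limit.

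With the fold limit set aside, more members passed the adjusted p. In D11 47 were higher and 11 lower, or 27.8% and 6.51% of members, where 19.9% and 13.4% of all genes tested were higher and lower. In WB1 37 were higher and 11 lower, 21.9% and 6.51%, against 18.6% and 12.3% of all genes. In TD5 7 were higher and 4 lower, 4.14% and 2.37%, against 5.32% and 6.57%. In WB1 against D11 4 were higher and 3 lower, where 4.65% and 3.42% of all genes were. In TD5 against D11 3 were higher and 43 lower, or 1.78% and 25.4% of members, against 8.43% and 14.8% of all genes. In TD5 against WB1 6 were higher and 21 lower, 3.55% and 12.4%, against 4.52% and 9.12%. The 3 comparisons with TPC1 share its libraries. The median log2 fold change of the members was 0.12 in D11, 0.09 in WB1 and −0.03 in TD5, beside 0.05, 0.06 and 0.00 for all genes tested. Summed over the 169 members, TPC1 and TD5 reached 98224 ± 3077 and 98012 ± 954 scaled reads, and D11 and WB1 reached 106770 ± 1677 and 102991 ± 1271. The D11 and WB1 libraries all lay above those of TPC1 and TD5 in this sum, and TPC1 and TD5 overlapped. As a share of all scaled reads the sum was 0.477% to 0.54%.

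Only 4 members passed the adjusted p in the same direction in all 3 clones, where 2.22% of all genes were higher and 2.88% lower in this way. ZNF211, a KRAB gene with 11 fingers at chr19:57630395-57644041, gave 195, 195 and 153 scaled reads in TPC1 and 263, 255 and 262 in D11. WB1 gave 251, 236 and 259, and TD5 gave 249, 265 and 206. All clone libraries were above the 3 of TPC1, by 0.49 in D11, 0.42 in WB1 and 0.37 in TD5 (adjusted p = 0.0037, 0.00821 and 0.0348). ZNF549, a KRAB gene of the same cluster at chr19:57527325-57557542, gave 215, 255 and 243 in TPC1 and 281 to 329 in the 9 clone libraries, with values of 0.34, 0.42 and 0.33. It overlaps ZNF550 on the opposite strand. ZNF318, a large nuclear protein at chr6:43307134-43369647 known as a partner of androgen receptor and of IgD splicing, gave 1386, 1474 and 1344 in TPC1 and 1523 to 1996 in the clones, with values of 0.18, 0.44 and 0.30. The one member lower in all 3 was ZNF526, at chr19:42220292-42228201, opposite in strand to GSK3A. It gave 509, 559 and 575 in TPC1 and 433, 408 and 368 in D11. WB1 gave 422, 401 and 417, and TD5 gave 426, 482 and 395, with values of −0.43, −0.39 and −0.32. Each of the 4 stayed under 1.5-fold in every clone. Without TPC1 replicate 3, 0 members passed in all 3 clones in either direction, and with each comparison fitted on its own lines only ZNF318 did. Without each of the other libraries in turn 1 to 6 members were higher and 0 to 4 lower, and ZNF526 did not pass without TPC1 replicate 2, TD5 replicate 1 or TD5 replicate 3. With the replicate number as a block ZNF318 did not pass in D11 (0.18, limma adjusted p = 0.0552). After the GC correction ZNF211 and ZNF526 still passed, and ZNF318 and ZNF549 did not. ZNF318 also did not pass with no filter on low values, with no trend, with median-of-ratios scaling or with the exon length correction. ZNF211 did not pass with no filter, and ZNF549 did not with the exon length correction.

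Changes were related to base composition. For members whose transcript has under 42% GC (n = 43) the median log2 fold change was 0.32 in D11, 0.24 for WB1 and 0.03 for TD5. Those of 42 to 50% (n = 57) had 0.18, 0.15 and −0.03, and those of 50% or more (n = 69) had −0.05, −0.09 and −0.04, of which the value in D11 became 0.01 with the GC correction. The bounds were chosen after the values were seen. Of the 47 members higher in D11 by adjusted p, 25 were in the lowest class and 3 in the highest, and of the 11 lower in D11, 0 were in the lowest and 10 in the highest. Shares of all genes passing in the same classes are not given here. Nothing particular to the members is therefore read from this split. The unit of ZNF678 printed above belongs to the member of lowest GC content and that of ZNF526 to one of the upper class (57.8%). The same classes of all genes with a mean of at least 200 had medians of 0.26, 0.08 and −0.13 in D11, 0.21, 0.07 and −0.11 in WB1. In TD5 they were 0.04, 0.01 and −0.04. Across the 169 members Spearman's rho of GC content and log2 fold change was −0.671 in D11 and −0.636 in WB1, but −0.131 in TD5, and across the 10595 genes with a mean of at least 200 it was −0.65, −0.574 and −0.195. Genes of 1 library share its preparation and are not independent replicates.

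**Figure D3:**
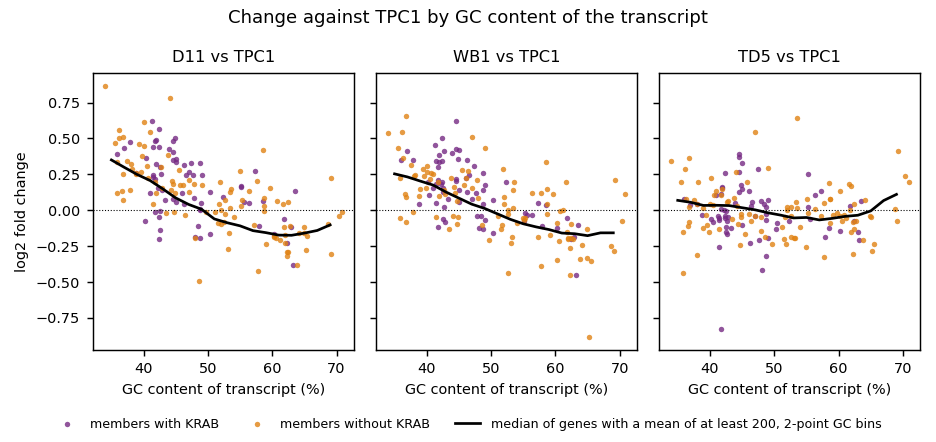
Log2 fold change against TPC1 (vertical axis) by GC content of the canonical transcript in percent (horizontal axis), 1 panel per clone. Points are the 169 members coloured by the KRAB pattern, and the black line joins medians of all genes with a mean of at least 200 in bins of 2 percentage points; members follow the line downwards in D11 and WB1, and ZNF268 lies far below it in TD5.

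The relation also varied between libraries of 1 line. As deviations from the mean of all 12 libraries, the members of the lowest GC class had medians of −0.03, −0.19 and −0.19 in the 3 TPC1 libraries, 0.08, 0.25 and 0.24 in D11, 0.09, 0.20 and −0.01 in WB1. In TD5 they were −0.15, −0.24 and −0.02. TPC1 replicate 1, WB1 replicate 3 and TD5 replicate 3 thus lay close to each other in this median, and each was apart from the rest of its line. D11 replicate 1 was also apart from its line, at 0.08 against 0.25 and 0.24. Over the members, rho between GC content and deviation was 0.295 in TPC1 replicate 1, −0.037 in WB1 replicate 3 and 0.073 in TD5 replicate 3. It was −0.241 in D11 replicate 1, and it reached −0.704 in D11 replicate 3 and 0.758 in TD5 replicate 2. With each library corrected for its GC trend, the members' medians were 0.05, 0.02 and −0.02, and rho was −0.123, −0.135 and 0.013. The members higher and lower by adjusted p then numbered 29 and 12 for D11, 24 and 15 for WB1, and 13 and 11 for TD5. Shares of all genes with this correction are not given here. These counts therefore cannot be set against the uncorrected shares, and nothing is read from their shift.

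**Figure D4:**
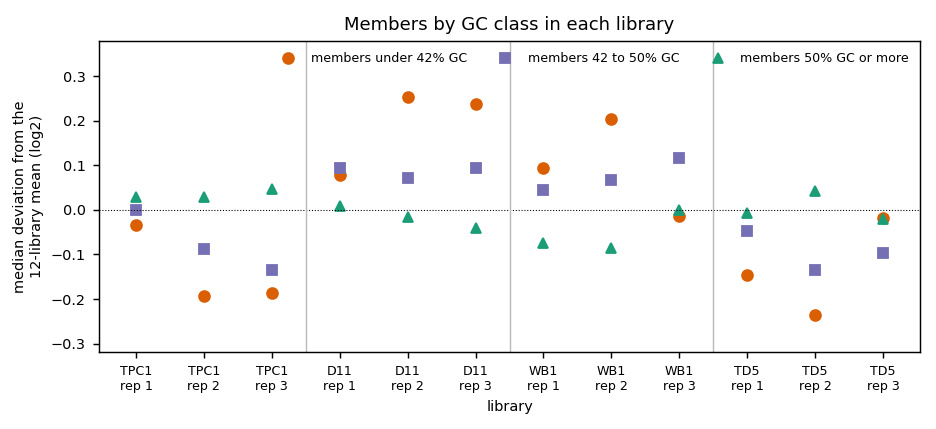
Median deviation of the members from their 12-library mean (log2, vertical axis) in each of the 12 libraries, for the 3 classes of GC content. Members under 42% GC run from −0.24 in TD5 replicate 2 to 0.25 in D11 replicate 2, while the class of 50% or more stays between −0.09 and 0.05.

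Of the 68 members with a KRAB box, 1 rose and 0 fell in D11, 1 rose and 0 fell in WB1, and 0 rose and 1 fell in TD5, by the same limma fit. At an unadjusted p of 0.05 the counts past 1.5-fold were the same. The called share of all genes tested was 4.84% in D11, 4.99% in WB1 and 2.6% in TD5. For genes with a mean of at least 200 it was 3.08%, 3.13% and 1.51%. The members called that had a KRAB box by the pattern, which can miss boxes, were ZNF302 in D11, ZNF175 in WB1 and ZNF268 in TD5. By adjusted p alone 22 KRAB members were higher and 1 lower in D11, 17 higher against 1 lower in WB1, and 3 each way in TD5. Of all genes tested 19.9% were higher and 13.4% lower in D11, 18.6% against 12.3% in WB1, and 5.32% against 6.57% in TD5. Their medians were 0.16, 0.13 and −0.03, and 0.11, 0.04 and −0.03 after the GC correction. The 101 members without the box had medians of 0.07, 0.05 and −0.03, and 0.02, −0.00 and −0.01 after the correction. KRAB members had lower GC content, as given above, and a difference between the groups was not tested. ZNF267, a KRAB gene of 14 fingers first studied in liver stellate cells, averaged 209 ± 16.01 in TPC1, 283 ± 37.9 in D11, 276 ± 62.5 in WB1 and 226 ± 53.1 in TD5. It was called in none of the 6 comparisons.

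**Figure D5:**
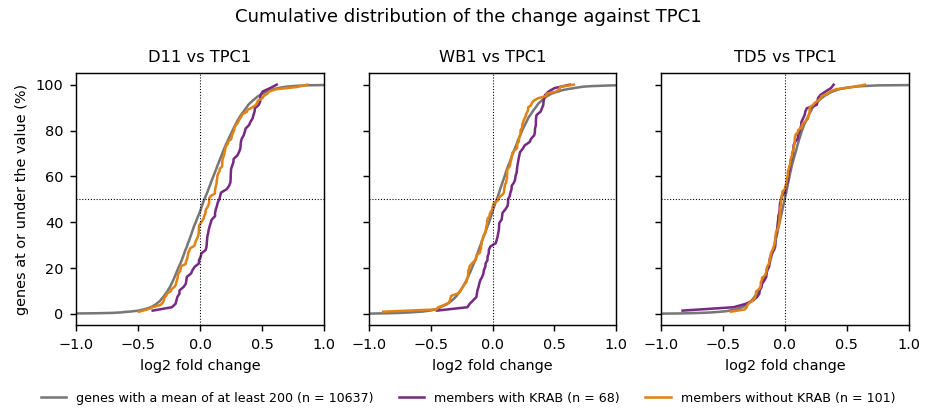
Cumulative share of genes (percent, vertical axis) by log2 fold change against TPC1 (horizontal axis, drawn from −1 to 1), 1 panel per clone, for genes with a mean of at least 200 and for members with and without a KRAB box. The curve of KRAB members crosses 50% at 0.16 in D11 and 0.13 in WB1, to the right of the other curves, and in TD5 the 3 curves lie together.

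The machinery that KRAB boxes recruit was measured as a list of 29 genes, all tested. In limma 0 of them were called in D11, WB1 or TD5 against TPC1, and 0 were past 1.5-fold at an unadjusted p of 0.05. By adjusted p alone 6 were higher and 0 lower in D11, 3 higher and 4 lower in WB1, and 1 higher and 0 lower in TD5. The shares of all genes by adjusted p alone are those given above for the KRAB members. TRIM28, the corepressor itself, was among the 4 lower in WB1 (−0.21, limma adjusted p = 0.0222). It averaged 12925 ± 910, 11993 ± 381, 11129 ± 395 and 13390 ± 1260 scaled reads in TPC1, D11, WB1 and TD5. SETDB1, which methylates lysine 9 of histone H3, averaged between 1415 ± 77.0 in D11 and 1526 ± 57.01 in TPC1. The single call among the 3 comparisons of clones with each other was UHRF1, which guides DNMT1 to replicated DNA. UHRF1 gave 1419, 1522 and 1343 scaled reads in D11 and 959, 863 and 1003 in WB1, and it was lower in WB1 (−0.59, adjusted p = 0.00125).

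The 48 members on chromosome 19 had medians of 0.14, 0.12 and 0.00 in D11, WB1 and TD5, and the 121 on other chromosomes had 0.12, 0.09 and −0.03. Beyond 57 Mb on chromosome 19, a bound chosen after the values were seen, lay 18 members, ZNF211 and ZNF549 among them. Of these 0 were lower by adjusted p in any clone, and 8 were higher in D11, 6 in WB1 and 2 in TD5, with medians of 0.21, 0.20 and 0.10. The 34 other genes tested there, of no zinc finger family, had medians of 0.16, 0.13 and 0.06, with 6, 6 and 2 higher and 0, 1 and 1 lower. Of all genes tested, 19.9% were higher by adjusted p in D11, 18.6% in WB1 and 5.32% in TD5. The shares lower were 13.4%, 12.3% and 6.57%. Nothing is read from the counts of this region, and their relation to GC content was not tested.

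Among members with work outside KRAB silencing, 23 chromatin and transcription regulators had medians of 0.02, 0.09 and −0.03 (−0.04 in D11 with median-of-ratios scaling, −0.03 with the exon length correction, and 0.00 in TD5 with the GC correction), and 3 of them, ZNF292, ZNF703 and ZNF395, were among the 9 called of all 169 members. The list was chosen with earlier results known, so nothing is read from this count. ZNF143, which binds promoters and chromatin loop anchors, averaged 453 ± 21.8, 495 ± 30.4, 486 ± 21.4 and 504 ± 39.1 in TPC1, D11, WB1 and TD5, with libraries that overlapped. ZNF217, an oncogene amplified in breast cancer, lay between 1208 ± 35.0 in WB1 and 1324 ± 71.0 in TPC1. ZNF410, a dedicated activator of CHD4, lay between 1554 ± 86.2 in WB1 and 1657 ± 38.3 in TPC1. ZNF148 and ZNF281, related factors that bind GC-rich promoters, averaged 899 ± 107 and 1382 ± 103 in TPC1 and 1249 ± 124 and 1584 ± 44.2 in D11. WB1 had 1215 ± 52.1 and 1591 ± 116, and TD5 had 1037 ± 148 and 1486 ± 98.8. Both passed the adjusted p, under 1.5-fold, in D11 and in WB1.

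ZNF532, ZNF592 and ZNF687 form a complex with the chromatin reader ZMYND8. ZNF532 averaged 1313 ± 70.2, 1595 ± 45.5, 1598 ± 24.6 and 1170 ± 20.6 in TPC1, D11, WB1 and TD5, ZNF592 lay between 1123 ± 32.1 in D11 and 1287 ± 59.2 in WB1, and ZNF687 between 1048 ± 30.3 in D11 and 1241 ± 82.2 in TPC1. The 3 partners thus did not share an order of lines, and none was called. ZNF532 passed the adjusted p, under 1.5-fold, as higher in D11 and WB1 than in TPC1 and as lower in TD5 than in D11 or WB1, and ZNF687 as lower in D11 than in TPC1. ZNF644, which acts with the methyltransferases EHMT1 and EHMT2, ranged from 579 ± 110 in TD5 to 813 ± 104 in D11. The 11 members on the SCAN list, a domain through which such proteins pair, had medians of 0.05, −0.03 and −0.02, of which the value in D11 turned to −0.01 with median-of-ratios scaling and −0.04 with the exon length correction, and that in WB1 to 0.01 with the GC correction. ZNF24, one of them, averaged 1042 ± 115, 1322 ± 83.9, 1299 ± 39.0 and 1099 ± 175 and passed the adjusted p in D11 and WB1 under 1.5-fold. The SCAN list overlaps the KRAB members, since ZNF197, ZNF202, ZNF445, ZNF446 and ZNF496 also carried a KRAB box by the pattern.

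The 8 members with roles in RNA, ribosomes or the spindle had medians of 0.04, −0.09 and −0.11, where the value in D11 was −0.16 with the GC correction, −0.04 with the exon length correction and −0.01 with median-of-ratios scaling. Of these 8, 0 were called in limma in any of the 6 comparisons, nor did any pass 1.5-fold at an unadjusted p of 0.05. ZNF598, the ubiquitin ligase that senses collided ribosomes, averaged 975 ± 92.5 in TPC1, 897 ± 29.1 in D11, 769 ± 66.4 in WB1 and 952 ± 170 in TD5. ZNF622 averaged 894 ± 40.4, 739 ± 19.2, 760 ± 27.3 and 779 ± 56.8, and ZNF593 390 ± 52.4, 293 ± 11.5, 302 ± 6.51 and 336 ± 53.1. Both were lower by adjusted p in D11 and WB1, under 1.5-fold. ZNF638, an RNA-binding protein that also silences unintegrated retroviral DNA, averaged 2119 ± 163, 2555 ± 214, 2510 ± 266 and 1969 ± 86.4.

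The 167 tested ZNF genes under the mean of 200 had medians of 0.12, 0.12 and −0.05 (−0.02, 0.00 and −0.06 after the GC correction), with 4 rising and 5 falling in D11, 4 against 6 in WB1, and 0 against 8 in TD5. The 65 tested ZBTB, ZSCAN, ZKSCAN and ZFP genes had medians of 0.19, 0.15 and 0.02, with 2 rising and 0 falling in D11, 2 against 1 in WB1, and 1 each way in TD5. At an unadjusted p of 0.05 these counts past 1.5-fold were the same. Beside them, 2.89% of all genes tested were called higher and 1.95% lower in D11. In WB1 the shares were 3.39% and 1.59%, and in TD5 1.12% and 1.48%. Differences between these groups of genes were not tested. Among the genes left out by name, ZNF766 gave 309 to 339 scaled reads in TPC1 and 287 to 393 in the clones and was not called. ZNF480, whose mean of 111 was below the limit, gave 167 to 249 in TPC1 and 29 to 150 in the clones.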

How the data were processed

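Per the labels and the study's methods, the authors sequenced stranded mRNA libraries, mapped reads with STAR 2.5.3a to GRCh38, counted them on Ensembl release 90 genes with HTSeq 0.9.1 and scaled them to 20000000 reads. The deposited values are thus treated as a score, not as raw reads, and edgeR, which the study used, was not run. Libraries sum to 20009833 to 20014191. The strand setting of the counting is not given in the sources used here.

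Values per 1000000 reads were fitted with limma 3.58.1 in R 4.3.3 (log2(value + 1), mean-variance trend, 1 mean per line, all 12 libraries). The fit was tested on simulated data. Members and lists were chosen with earlier results of these data known. Named members were those called, those past the adjusted p in all clones, the 10 highest per kilobase, the 5 steadiest, those nearest the limit, and a list of well studied genes. Exon lengths and GC content came from GENCODE release 44, and fingers and KRAB boxes were searched in its translated canonical transcripts, since no protein table was used. Deviations from the line mean in same-numbered libraries of D11 and TD5 had correlations of 0.11, 0.17 and 0.35. In no other pair of lines were all 3 such values positive. Differently numbered libraries ranged as widely. D11 replicate 1 had 0.20 with TD5 replicate 2 and 0.32 with WB1 replicate 3. D11 replicate 3 had −0.36 with TD5 replicate 2. Whether the replicate number marks a batch was not tested. Other steps used Python 3.11.15 with pandas 2.3.3, numpy 2.4.6 and scipy 1.17.1, and figures were drawn with matplotlib 3.10.9.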

Additional observations from a re-analysis of the deposited data

Results flagged for a closer look

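Changes of 4 members differed between clones by both limits, the adjusted p and 1.5-fold, in the test of clone against clone. By the adjusted p alone more members differed. ZNF367 differed between WB1 and D11 (−0.82) and ZNF703 between the same lines (−0.61). ZNF268 differed between TD5 and D11 (−0.82) and between TD5 and WB1 (−0.71). ZNF302 differed between TD5 and D11 (−0.66), and ZNF703 between TD5 and WB1 (0.60). Lines of 3 libraries were not searched for single outlying libraries.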

How the results depend on the processing

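With no minimum fold change, members were 47 higher and 11 lower in D11, 37 and 11 in WB1, 7 and 4 in TD5, with 7, 46 and 27 called in WB1 vs D11, TD5 vs D11 and TD5 vs WB1. Of the repression machinery 14 calls were then made over the 3 clones, and 89 other zinc finger genes were called. With a pseudocount of 4, D11 had 2 and WB1 had 1 higher, and the clone comparisons had 1, 1 and 0 called. With median-of-ratios scaling, D11 had 2 and WB1 had 1 higher (medians 0.0664 and 0.0315). With the GC correction, with and without the replicate block, these were 1 and 0 (medians 0.0508 and 0.023), with 1 called in TD5 vs D11 and 0 in TD5 vs WB1. With the exon length correction they were 2 and 0 (medians 0.0654 and 0.0267). With both corrections 0 members were higher by 1.5-fold in WB1 at an unadjusted p of 0.05 in limma, and with the GC correction the same held in TD5 vs WB1 in either direction. The cause of these shifts was not tested.

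The replicate block alone changed no count of called members (4 higher in D11), and among named members it changed only ZNF318 in D11, which no longer passed the adjusted p. Other zinc finger genes called in at least 1 clone, 26 of 232, were 43 and 7 with pseudocounts of 0.1 and 4 and 15 with a filter of 5 per 1000000. DICER1 in WB1 passed the fold limit with the GC correction (−0.62, also with the block) and the exon length correction (−0.59), and its −0.43 passed with no fold limit. These runs for DICER1 and the other zinc finger genes were added after the data were seen.

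Leaving out each library in turn, the members higher ranged from 2 to 10 in D11, 0 to 4 in WB1 and 0 to 2 in TD5, those lower stayed at 0, 1 and 1, and those called were 1 to 2 in WB1 vs D11, 1 to 8 in TD5 vs D11 and 1 to 3 in TD5 vs WB1. In WB1 the 0 was without TPC1 replicate 3 and the 4 without WB1 replicate 3, in TD5 the 0 was without TPC1 replicate 3 or TD5 replicate 1 and the 2 without TPC1 replicate 1, TPC1 replicate 2 or TD5 replicate 2, and TD5 vs D11 gave 6 without D11 replicate 1, 8 without TD5 replicate 3 and 1 without TD5 replicate 2. The medians ranged from 0.0937 to 0.154 in D11, 0.0687 to 0.1172 in WB1 and −0.0316 to 0.0047 in TD5. DICER1 ranged from −0.25 to −0.10 in D11, −0.49 to −0.34 in WB1 and −0.89 to −0.68 in TD5. No called member, and none of the 4 that passed in all 3 clones, changed direction in these runs. The other named members were not refitted. At 3 libraries a line, members near 200 scaled reads rest on fewer reads than the rest. Median deviations of the lowest GC class ran from −0.24 in TD5 replicate 2 to 0.25 in D11 replicate 2. Whether changes under 1.5-fold are tied to this trend was not tested.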
